A study of Mus musculus with 6 samples.

Results

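Zeb2, Spi1 and Foxp1 are 3 transcription factor genes of the myeloid lineage. Described here are the hnRNP UL1 ChIP-seq peaks at these genes in RAW 264.7, an established macrophage line of the mouse. The peaks described are those whose nearest gene is one of these genes, together with every peak inside the genes or up to 5 kb to either side. They number 115 of the 18624 peaks in the 3 peak tables, with 56 of 8425 in untreated cells (0 h), 56 of 9046 after 4 h and 3 of 1153 after 10 h of lipopolysaccharide (LPS) at 100 ng/ml. The genes were chosen by their peak numbers in these same tables and by their known role, so those numbers are a description and were not tested. The series holds 1 ChIP library and 1 input library per time, all of that line, and only the ChIP libraries have peak tables used here. The antibody was raised against hnRNP UL1, a nuclear RNA-binding protein with roles in RNA processing and DNA repair. Each row of a table gives a peak as a single point, with no height, extent or significance, and read depth is unknown. No sample was replicated, so there is no replicate error and no test between times. Peak positions do not measure expression, so they do not check the label of the cells as macrophages. Of the markers examined, 5 of 8 macrophage marker genes held a point in the gene or its 5 kb flanks at 0 h, and so did 1 of 5 B and T cell markers, 0 of 3 neuronal and 1 of 2 hepatocyte markers, where 19.3% of all protein-coding genes did. The lists are short, and their counts were not tested against that share.

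Each of the 3 proteins acts on DNA directly. Spi1 encodes PU.1, the ETS-family factor that is required to form macrophages and that opens their enhancers. Zeb2 encodes a zinc finger and homeodomain factor that binds E-boxes, mostly represses, and takes part in the differentiation and identity of monocytes, macrophages and dendritic cells. Foxp1 encodes a forkhead repressor that is needed in lymphocytes and restrains monocyte differentiation.

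Which times can be described differs between the genes, because the tables are sorted by the Ensembl ID of the nearest gene and end at different IDs. The 0 h table runs to ENSMUSG00000117337, the 4 h table breaks off at ENSMUSG00000027620 and the 10 h table stops at ENSMUSG00000022416. Spi1 (ENSMUSG00000002111) is reached by all of them. Zeb2 (ENSMUSG00000026872) is reached at 0 h and 4 h, and Foxp1 (ENSMUSG00000030067) at 0 h alone. Zeb2 after 10 h and Foxp1 after 4 h and 10 h were therefore not analysed here, and no absence of peaks can be read from those tables.

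Coordinates are those of GRCm38 (mm10). Zeb2 lies on the minus strand of chromosome 2, 44983632 to 45117395 (134 kb), as spanned by the transcripts the tables list. Spi1 lies on the plus strand of the same chromosome, 91082390 to 91115756 (33.4 kb). Foxp1 lies on the minus strand of chromosome 6, 98925342 to 99521162 (596 kb). The promoter sequences beside which points were found are shown as the 250 bases before a RefSeq start, read 5′ to 3′ on the strand of the gene from GRCm38.p6. The first lies at chr2:45117443-45117692, before the outer start of Zeb2, where both tables have points just downstream. The second lies at chr2:45113280-45113529, before an inner Zeb2 start, with a point at 4 h. The last lies at chr6:99520994-99521243, before a Foxp1 start with the outermost 0 h point of that gene. Capitals mark a match to a searched motif.
Zeb2 outer start: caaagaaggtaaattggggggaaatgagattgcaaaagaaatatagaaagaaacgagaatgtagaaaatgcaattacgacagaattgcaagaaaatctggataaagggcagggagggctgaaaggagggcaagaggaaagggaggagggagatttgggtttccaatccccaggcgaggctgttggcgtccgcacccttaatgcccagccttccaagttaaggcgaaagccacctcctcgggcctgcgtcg
Zeb2 inner start: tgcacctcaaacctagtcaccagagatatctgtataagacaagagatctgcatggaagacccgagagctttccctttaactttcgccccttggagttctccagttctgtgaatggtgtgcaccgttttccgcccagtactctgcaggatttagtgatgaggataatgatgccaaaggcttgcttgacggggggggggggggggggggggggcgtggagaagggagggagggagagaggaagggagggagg
Foxp1 start: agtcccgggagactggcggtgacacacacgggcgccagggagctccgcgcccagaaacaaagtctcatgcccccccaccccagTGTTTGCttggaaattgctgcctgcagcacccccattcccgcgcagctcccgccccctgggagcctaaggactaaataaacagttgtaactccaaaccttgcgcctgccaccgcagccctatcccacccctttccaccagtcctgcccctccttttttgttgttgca

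The RefSeq promoter table holds 4 promoters of Zeb2, 3 of Foxp1 and none matched for Spi1. The second and another of the Zeb2 promoters overlap. The first sequence has a G and C content of 49.6%, and the second, with 55.6%, carries an unbroken run of G. The nearest points at 4 h lay 92 bp downstream of the outer start and 258 bp upstream of the inner start. At 0 h the nearest point to the outer start lay 307 bp downstream. The Foxp1 point at 0 h lay 580 bp upstream of the start shown, whose promoter has a G and C content of 60.8%. No point of the tables that reach the gene lay within the 300 bases given for each of these 7 promoters. Motifs searched on both strands of those 300 bases were GAGGAAGT (PU.1), GGAAGTG (ETS factors, which can overlap the former), CACCTG (the E-box bound by ZEB factors), TGTTTAC and TGTTTGC (forkhead factors), GGGACTTTC and GGGAATTTC (NF-kB) and TTGCGCAA (C/EBP). Of the 7 promoters, 1 of Foxp1 held TGTTTGC, beginning 167 bases upstream of its start, a motif found in 5.07% of all 32851 promoters of the table. Another Foxp1 promoter, whose start lies 50915 bp from the nearest 0 h point, held CACCTG, which 20.2% of all promoters hold. The 4 Zeb2 promoters held none of these motifs. The other motifs occurred in 3.20% (GAGGAAGT), 11.0% (GGAAGTG), 3.65% (TGTTTAC), 0.353% (GGGACTTTC), 0.259% (GGGAATTTC) and 0.183% (TTGCGCAA) of all promoters.

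Zeb2 carried a long series of peaks along most of its body before LPS, and it did so after 4 h of LPS too. In the gene and 5 kb to both sides there were 35 points at 0 h and 45 at 4 h, or 24.3 and 31.3 points per 100 kb. At 0 h 33 points lay in the gene and 2 downstream of it. At 4 h 43 lay in the gene, 1 upstream and 1 downstream. All of them name Zeb2 as the nearest gene. By rows naming the gene at any distance, the count at 0 h was 37, the highest of the 5410 nearest genes in that table. Counted by position on the RefSeq spans of 21900 protein-coding genes, 2 genes held more points at 0 h, Lrmda with 47 and Rgl1 with 39. Where the times are compared, only points naming a gene of the IDs shared with the 4 h table count, which leaves 29 for Rgl1 and all 35 for Zeb2. By points per 100 kb, 4 of the 3459 genes named in the IDs shared with the 4 h table stood above Zeb2 at 0 h, and 40 did at 4 h.

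The count at Zeb2 was 1.29 times as high at 4 h as at 0 h, whereas all points of the shared gene IDs went from 2225 to 9045, a ratio of 4.07. Zeb2 thus held 15.7 of every 1000 points at 0 h and 4.98 of every 1000 at 4 h. Of the 10 genes with at least 10 points at 0 h, the ratios ran from 0.714 to 4.40 with a median of 1.27, and 4 genes stood above Zeb2 and 5 below. These genes were taken by the 0 h counts that enter the ratio, so the ratios are a description and show no change by themselves.

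**Figure D1:**
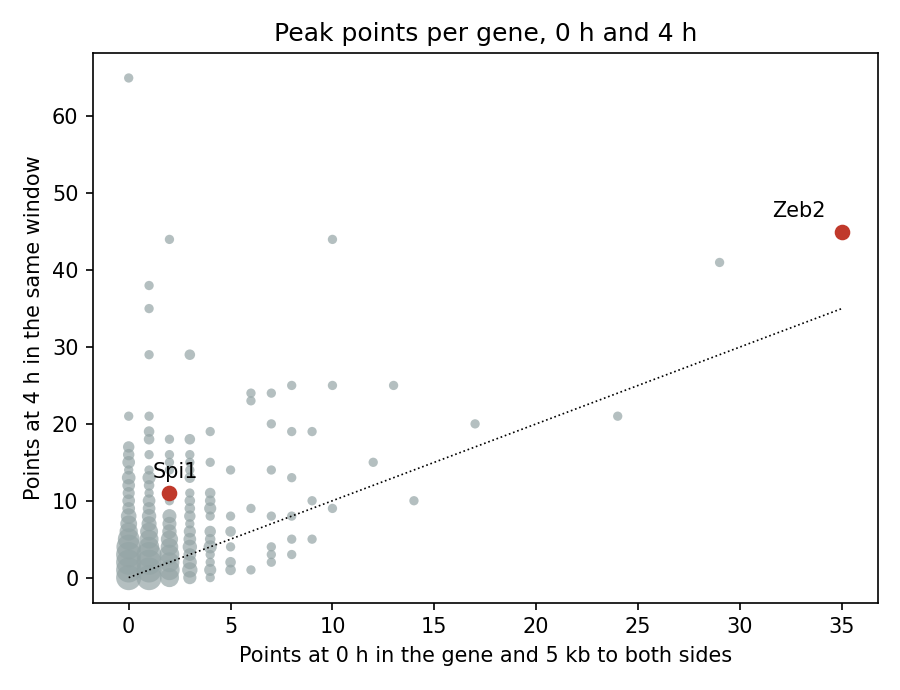
Points per gene at 0 h (horizontal axis) and 4 h (vertical axis), in the gene and 5 kb to both sides, for 3459 genes of the shared ID range. Grey dots mark pairs of counts, drawn larger where more genes share a pair, the dotted line marks equal counts, and the red dots mark Zeb2 (35 and 45) and Spi1 (2 and 11).

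Along Zeb2 the points followed one another every few kb. The median distance between neighbours was 2.56 kb at 0 h and 2.62 kb at 4 h, and 26 of 34 gaps at 0 h and 37 of 44 at 4 h were under 5 kb. The closest neighbours were 275 bp apart at 0 h and 633 bp at 4 h. Divided into 5 equal parts from the start, the gene held 10, 9, 8, 3 and 3 points at 0 h and 12, 10, 10, 9 and 2 points at 4 h. At 0 h the first 3 parts held most points, at 4 h the first 4 parts held similar numbers and the last few, and the times differed most in the fourth part. There a stretch without any 0 h point, from 88.9 to 105 kb after the start, held 3 points at 4 h, at 92.6, 97.4 and 102 kb. A further gap at 0 h, from 111 to 124 kb, held 2 points at 4 h. Near the 3′ end the order was the opposite: no 4 h point lay between 121 and 137 kb, where 2 points of 0 h lay, at 124 and 136 kb.

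**Figure D2:**
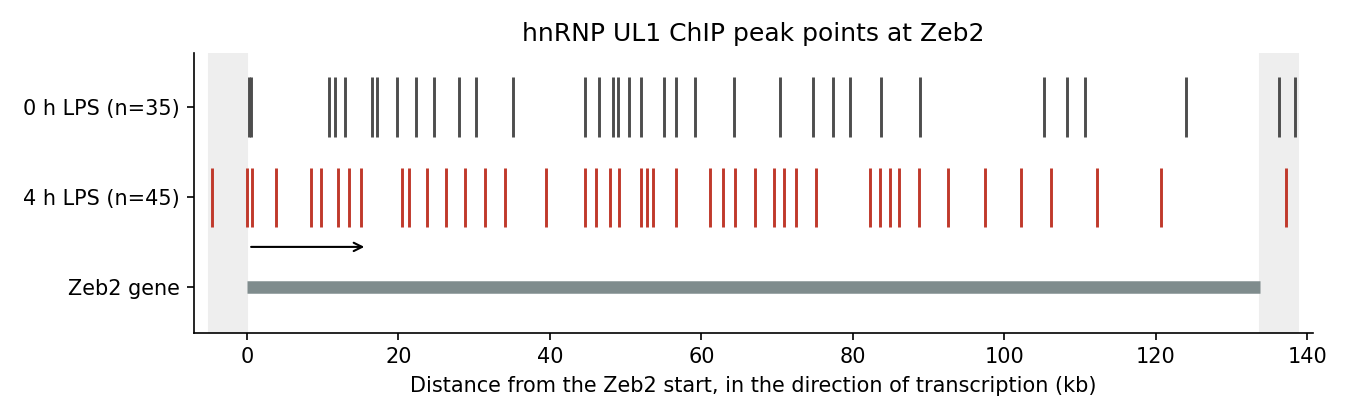
Peak points at Zeb2 at 0 h (35 points) and 4 h (45 points) by distance from the start of the gene in kb, with the grey bands marking the 5 kb flanks and the arrow the direction of transcription. Each vertical line is 1 point. At 0 h the series is dense up to about 88.9 kb and resumes from 105 to 111 kb after a gap. At 4 h it runs on to 112 kb without that gap. Towards the 3′ end it thins at both times.

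By the authors' annotation the Zeb2 points were mostly intronic. Introns held 27 of 35 points (77.1%) at 0 h and 29 of 45 (64.4%) at 4 h. The window admits only points in or beside a gene, and distal intergenic points are mostly left out. The intron shares are therefore not set against those over all points. Shares near starts are given beside those over all points, under the same limit. A single intron, intron 3 of 10 in the longest transcript (ENSMUST00000176438), took 23 points at 0 h, from 16.6 to 88.9 kb after the start. At 4 h it took 26, from 13.4 to 88.7 kb. That stretch is a large part of the 134 kb gene, so these counts by themselves show no concentration in the intron. Intron 5 held 3 points at each time. The remaining intron point at 0 h lay in intron 10, 124 kb from the start. Points labelled exonic were 3 at 0 h and 2 at 4 h, of which only 1, at 4 h in exon 9 of 11, belongs to the longest transcript. At 4 h 2 points, 20.5 and 21.4 kb from the start, are labelled 3′ UTR although they lie among points of intron 3. The 3′ UTR label names no transcript.

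Few Zeb2 points lay near transcription starts. The class within 1 kb of a start held 2 of 35 points (5.71%) at 0 h and 4 of 45 (8.89%) at 4 h. Over all points of the shared IDs it held 33.4% at 0 h and 19.9% at 4 h. At the outer start the 0 h points lay 260 and 535 bp into the gene, and the 4 h points lay 45 and 678 bp into it. Inner starts carried more points at 4 h. The start of transcript ENSMUST00000126743 had a 4 h point 29 bp upstream of it, and the nearest 0 h point to that point lay 3323 bp away. The start of ENSMUST00000201413, at position 45054241, had 4 h points 341 bp upstream and 1258 bp downstream, and a 0 h point 1117 bp downstream. With all classes up to 3 kb counted, starts held 3 points (8.57%) at 0 h and 10 (22.2%) at 4 h. Over all points of the shared IDs these classes held 1022 points (45.9%) at 0 h and 3230 (35.7%) at 4 h. There the count rose and the share fell, whereas at Zeb2 both were higher at 4 h. The Zeb2 numbers are small, and the difference was not tested.

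Some points of 0 h and 4 h within Zeb2 lay close together, 2 pairs of them within 10 bp. Of the 35 points of 0 h, 8 lay within 200 bp of a 4 h point, at distances of 3, 4, 38, 67, 107, 141, 143 and 149 bp. These are 22.9%, against 9.93% of all 0 h points in the shared IDs and 12.6% of the bases in the Zeb2 window. The pair 3 bp apart lies 44.7 kb from the start (45072723 and 45072720), and that 4 bp apart lies 56.6 kb from it (45060782 and 45060778), both in intron 3. Within 500 bp there were 14 of 35 (40.0%), against 18.0% of all 0 h points in the shared IDs. Taken from 4 h, 14 of 45 (31.1%) had a 0 h point within 500 bp, against 4.51%. Points are dense in the gene: 30.7% of the bases in the Zeb2 window lie within 500 bp of some 4 h point, and 23.2% within 500 bp of some 0 h point. At shorter distances the numbers are small: within 10 bp there were 2 of 35 points, against 0.657% of the bases and 1.03% of all 0 h points. At the other end, 5 of the 35 points of 0 h and 11 of the 45 points of 4 h had no point of the other time within 2 kb.

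**Figure D3:**
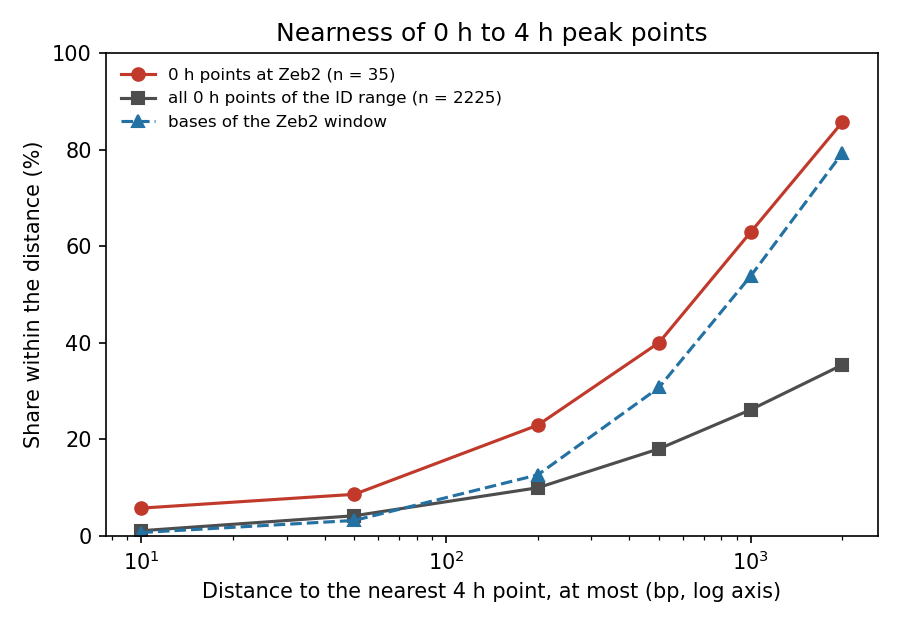
Share in percent (vertical axis) that lies within a given distance in bp (log axis) of a 4 h point, for the 0 h points of Zeb2, for all 0 h points of the shared gene IDs, and for all bases of the Zeb2 window. The Zeb2 points reach 40.0% at 500 bp, above all points (18.0%) and nearer to the bases of the window (30.7%).

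The surroundings of Zeb2 at 0 h, the one table that covers all IDs, held fewer points than the gene. In 500 kb on each side beyond the window there were 27 points, or 2.70 per 100 kb against 24.3 in the window. Of these, 21 lay upstream and 6 downstream. Just outside the window lay a 0 h point 6.88 kb downstream of the gene and another 12.3 kb upstream, both naming Zeb2. Just inside it lay the 4 h point 4.61 kb upstream. The antisense RNA Zeb2os (45111138 to 45114087) and the microRNA gene Mir5129 (45023100 to 45023177) lie within Zeb2. No row in the window names them, but whether the 4 h table reaches their IDs was not checked. A 4 h point nearest to a gene beyond the reach of that table would be missing from the Zeb2 count.

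Spi1 held few points before LPS and after 10 h, and more after 4 h. In the gene and its flanks there were 2 points at 0 h, 11 at 4 h and 3 at 10 h, which is 4.61, 25.4 and 6.92 per 100 kb. The 4 h count was 5.50 times that at 0 h, while all points of the IDs reached by every table rose 4.04 times, from 1312 to 5298. From 4 h to 10 h the ratio was 0.273 for Spi1 and 0.217 for all points. As shares these are 1.52, 2.08 and 2.60 of every 1000 points, and with so few points no course of its own can be read for Spi1. Among 2070 genes named in those IDs, 81 held more points than Spi1 at 0 h, 48 at 4 h and 42 at 10 h.

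The points of Spi1 lay in partly different parts of the gene at the 3 times. At 0 h both lay in intron 2 of 3, 26.5 and 29.9 kb from the start, and both name the next gene, Mybpc3 (a sarcomere protein gene), as nearest. By rows naming Spi1 there were therefore 0 at 0 h, 8 at 4 h and 3 at 10 h. At 4 h 6 points lay around the start and in the first intron, between 0.606 kb upstream and 9.26 kb downstream. A further 3 lay in intron 2, 20.7, 22.0 and 27.8 kb from the start, the last of them between the 2 points of 0 h. Another 2 lay past the end of the gene, 34.7 and 35.7 kb from the start, beside the start of Mybpc3. At 10 h the points lay 1.66, 4.44 and 14.5 kb from the start, the first 2 of them in the stretch occupied at 4 h. No 0 h point lay within 500 bp of any point of 4 h or 10 h in Spi1, where 19.1% of all 0 h points of those IDs lay that near a 4 h point. With 2 points, the count of 0 carries little.

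**Figure D4:**
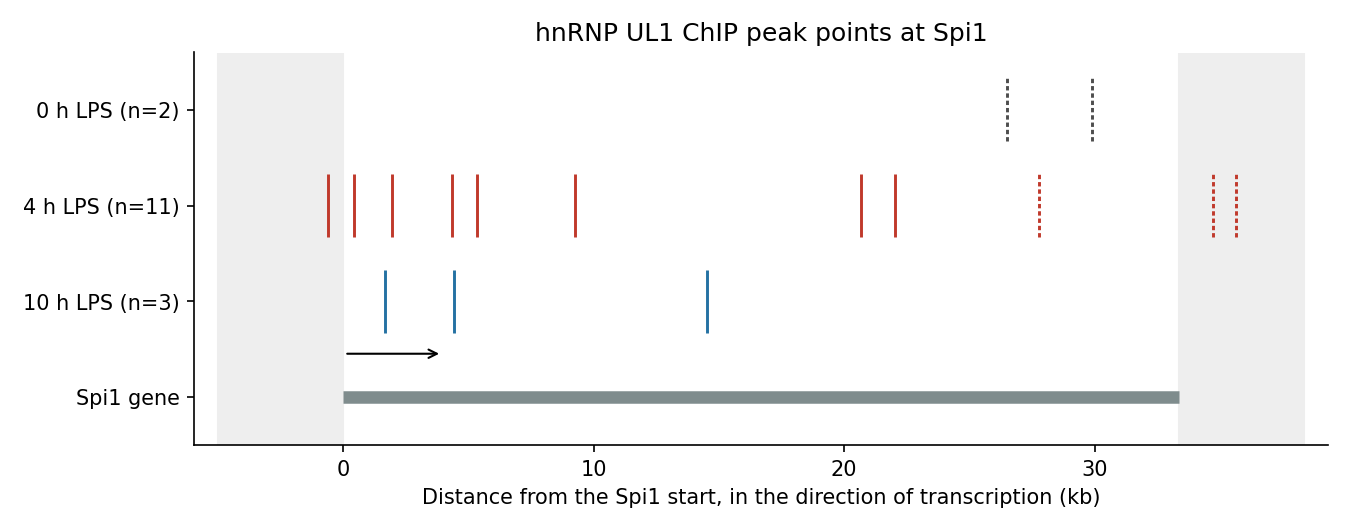
Peak points at Spi1 at 0 h (2 points), 4 h (11) and 10 h (3) by distance from the start in kb, with grey bands for the 5 kb flanks and dashed lines for points whose row names Mybpc3. The 0 h points lie near the 3′ end, and the points around the start and in the first intron come from 4 h and 10 h.

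At Spi1 some points of 4 h and 10 h lay near each other. Of the 3 points at 10 h, 2 lay within 500 bp of a 4 h point, at 83 and 286 bp, against 20.3% of all 10 h points in those IDs and 25.2% of the bases in the Spi1 window. Within 200 bp there was 1 of 3, and 3 points are too few to read more from. The first of these pairs, at 91086748 (4 h) and 91086831 (10 h), lies in intron 1. The remaining 10 h point lay 135 bp after the start of the shorter transcript ENSMUST00000132741, at 91096780, and 5266 bp from the nearest 4 h point. Outside the window, the nearest upstream point lay 12.1 kb before the start at 0 h (naming Slc39a13), 28.2 kb at 4 h (naming Psmc3) and 144 kb at 10 h (naming Celf1), among rows whose nearest gene each table reaches. By annotation, starts within 1 kb held 0 of 2 points at 0 h, 3 of 11 (27.3%) at 4 h and 1 of 3 at 10 h, and introns held 2, 6 and 1. Of the 3 start points at 4 h, 1 belongs to Mybpc3.

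Foxp1, the longest of these genes, carried 17 points at 0 h, spread over its whole length. This is 2.81 points per 100 kb, below Zeb2 (24.3) and Spi1 (4.61) in the same table, with a point every 35.6 kb. Among all 21900 protein-coding genes 10 held more points at 0 h. Among the 526 genes of 0.5 to 2 times its length, 1 held more (Lrmda, with 47), 386 held none and the median was 0. By points per 100 kb, 2173 genes (9.92%) stood above it. Of the 17 rows, 11 name Foxp1. The others name Gm20696 (2 rows) or genes without a symbol in the table (4 rows), and lie in introns of Foxp1 all the same.

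The Foxp1 points were intronic with few exceptions. Introns held 15 of 17 (88.2%). First introns of the longer transcripts took 7 of these, between 54.0 and 206 kb from the start. Intron 2 of ENSMUST00000113326 took 4, between 269 and 348 kb, and introns 3, 9, 11 and 15 took 1 each. The class within 1 kb of a start held 2 points (11.8%), against 27.4% of all 0 h points. One lay 411 bp before the outermost start, at 99521573. In the RefSeq annotation, whose Foxp1 ends further out at 99522746, this point lies 1.17 kb inside the gene. The other, at 99248375, lay 39 bp before the start of ENSMUST00000177208, an inner start 273 kb into the gene.

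In 5 equal parts from the start, Foxp1 held 5, 2, 5, 1 and 3 points. The median distance between neighbours was 25.1 kb, against 2.56 kb in Zeb2, and only 2 gaps were under 5 kb, of 2238 and 3492 bp. The longest gap ran from 440 to 544 kb. The 500 kb flanks on both sides together held 3 points, or 0.300 per 100 kb against 2.81 in the window, all of them upstream. Downstream the next point lay 930 kb past the end of Foxp1, naming Mitf, itself a macrophage transcription factor gene. The noncoding RNA genes Gm19665, Gm38865, Gm51278, Gm52870 and Gm32882 of the RefSeq annotation overlap Foxp1, and no row in the window names them.

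**Figure D5:**
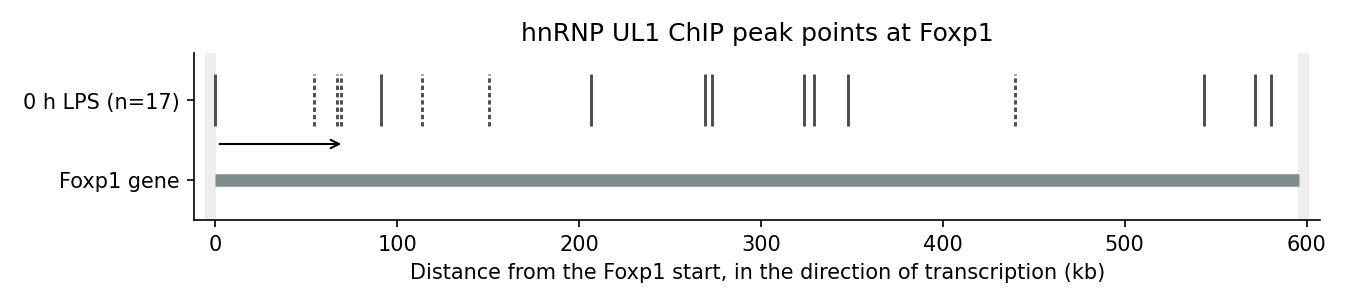
Peak points at Foxp1 at 0 h by distance from the start in kb. Each of the 17 lines is 1 point, dashed where the row names another gene, and they reach from 0.411 kb before the start to 580 kb after it, with the widest gap between 440 and 544 kb.

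Genes with the most similar numbers of rows were taken as those with the smallest summed difference of log2(rows + 1) over the tables that reach the gene. For Zeb2, over the tables of 0 h and 4 h, these were Rgl1 (32 and 42 rows, difference 0.30), Alcam (17 and 29, difference 1.69) and Tns3 (14 and 33, difference 1.78), against 37 and 45 for Zeb2. Rgl1 encodes a regulator of Ral GTPases, Alcam an adhesion molecule and Tns3 a focal adhesion protein. For Spi1, over all 3 tables, they were Rnaseh2b (0, 6 and 3 rows), Mapkapk2 (0, 8 and 2), the kinase acting below p38 in LPS signalling, and Fars2 (0, 11 and 3). For Foxp1, known in 1 table, 5 genes had the same 11 rows at 0 h, and those nearest in length were Xylt1, Dpys and Gpr137b.

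At 0 h no other myeloid transcription factor gene of the list examined held more than the 12 points of Runx1, against 35 for Zeb2. In that list of 50 genes, 30 held at least 1 point at 0 h in the gene or its 5 kb flanks, with 76 points together, where 19.3% of all protein-coding genes did so. The median length was 20.6 kb in the list and 17.1 kb over all genes. List genes that no row names could not be placed in the ID order, so their counts at 4 h and 10 h are not summed. Runx1, a haematopoietic master factor, had the most rows, with 9 rows at 0 h and 19 at 4 h. Pparg, the lipid-sensing nuclear receptor, had 5, 4 and 2 rows at 0 h, 4 h and 10 h. Klf6 had 1, 8 and 1 rows, Myb 2, 6 and 1, and Rxra 1, 3 and 3. In the IDs reached by every table, all points numbered 1312, 5298 and 1152 at these times. More rows at 4 h than at 0 h or 10 h are thus no course particular to a gene. Tfeb, a regulator of lysosome genes, had 5 rows at 0 h and 2 at 4 h, and Mitf had 7 at 0 h, beyond the reach of the other tables.

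Of 8 close relatives of the 3 genes, 1 held a point in the gene or its 5 kb flanks at 0 h (19.3% of all protein-coding genes did), and genes named at 4 h in the IDs shared with Zeb2 had a median of 2 rows. Zeb1, the paralogue of Zeb2, had 0 rows at 0 h and 4 at 4 h in a gene of 184 kb. Of the ETS family, Spic had 0 rows at 0 h, 1 at 4 h and 0 at 10 h, and Elk3 had 0, 2 and 0, while Spib and Ets1 had none in the 0 h table. Zeb1, Spic and Elk3 could be placed in the ID order only because rows at 4 h name them. Their counts of 0 at 0 h and more at 4 h follow from that and show no rise. The median likewise counts only genes with a row. No row at 0 h named Foxp2 (541 kb), Foxp3 or Foxp4, although 1 point of 0 h lay in Foxp4 or its flanks. For Foxp2, similar to Foxp1 in length, the window held 0 points at 0 h.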

How the data were processed

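ChIP for hnRNP UL1 was done in RAW 264.7 cells at 0, 4 and 10 h of LPS, per the labels' protocols. The submitters' processing notes name MACS2 2.1.0, BWA 0.7.12 and CASAVA 1.8, and the builds GRCm38 and mm10. Roles, settings, thresholds, use of the input and the annotation tool are not given in the sources used here. The deposited tables list, per peak and per the file headers, a position 2 bp wide, an annotation class and the nearest gene with its distance. Samples were grouped by title, 1 library per time. At 4 h, 1 incomplete row was left out.

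A point counted at a gene when it lay in the union of the transcripts that the tables list for it or up to 5 kb to either side. A table was used for a gene whose ID lies below the last ID of that table. Points were called near within 500 bp. Comparison genes came from RefSeq GRCm38.p6, matched by symbol and chromosome. Motif letters were searched on both strands of RefSeq promoters. The 3 genes, the lists and the rules were chosen with earlier results of these data known. The named genes are the 3 genes, those overlapping or named in their windows, the 3 most alike in rows, and the list genes with the most rows (7, since 3 tied for the last places). Lrmda and the genes just outside the windows were named after their values were seen, and the 500 kb surroundings were chosen then too. Counting was tested on simulated points. Python 3.11.15 with pandas 2.3.3 and NumPy 2.4.6 was used. Alternatives were the counted region, the gene span, merging, the near distance and the promoter class. A stricter peak threshold was not run, as the tables hold no score.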

Additional observations from a re-analysis of the deposited data

How the results depend on the processing

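Of 81 values recomputed with other settings, 70 stayed within 1.5 times the reported value and 11 did not. By rows naming the gene the count at 0 h was 0 instead of 2 for Spi1 and 11 instead of 17 for Foxp1, since points within these genes name neighbours. With 200 bp in place of 500 bp as the near distance, 8 points of Zeb2 instead of 14 were near the other time in either direction, and with 1000 bp there were 22 of 0 h and 24 of 4 h. With 200 bp 1 point of Spi1 instead of 2 was near, both from 4 h to 10 h and from 10 h to 4 h. Counting starts up to 3 kb gave 10 instead of 4 points for Zeb2 at 4 h, 5 instead of 3 for Spi1 at 4 h and 2 instead of 1 for Spi1 at 10 h. The counts in the gene alone, with 10 kb flanks, with the RefSeq span and with points under 500 bp apart merged, and the ratios between times computed from them, were among the 70. No paired analysis was possible because each time has 1 library. A stricter peak threshold was not run. Unknown read depth limits every statement of absence: a site without a point may have held signal below the threshold. Where the 4 h and 10 h tables stop limits the genes and times that could be described, and the points of 1 gene are not independent of each other.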
